A study of Mus musculus with 21 samples.

Results

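CD15 positive cells from Math1-GFP tumours were compared with CD15 positive cells from conventional Patched tumours across all genes measured on an expression microarray. The arrays were chosen by the CD15 fraction and the tumour model in their titles, which gave 4 Math1-GFP and 6 conventional arrays, 10 of the 21 arrays of the series. The other 11 arrays hold the CD15 negative fractions and were used for the shared estimate of the spread and for a matched comparison. All samples were primary medulloblastoma cells of the mouse cerebellum, profiled on Affymetrix Mouse Genome 430 2.0 arrays, and every group carries a Patched tumour.

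Patched (Ptch1) is the receptor that holds Hedgehog signalling in check, and mice lacking one working copy develop medulloblastoma, a tumour of the cerebellum. Hedgehog drives the division of granule neuron precursors, the cells from which these tumours arise, and those precursors are defined by the transcription factor Math1, now called Atoh1. CD15, also known as Lewis X or SSEA-1, is a fucosylated carbohydrate on the surface of some neural progenitors and tumour-propagating cells. It is also carried by human neutrophils. Math1-GFP is known as a reporter in which control elements of Atoh1 drive a green fluorescent protein.

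The labels give no age, strain, sex or allele for either model, and they do not say whether the Math1-GFP cells were also sorted for fluorescence. Separate animals are not named for the arrays of a group, and the p-values therefore rest on array-to-array spread that may be technical. The descriptions of the Math1-GFP samples call those tumours conventional too, and the titles were followed. Every Math1-GFP title ends in le2 and every conventional title in le1, so the tumour model and whatever that ending records cannot be told apart. Arrays are named here by the number in their titles: 1, 5, 7 and 9 for Math1-GFP, and 2 to 6 and unnumbered for conventional.

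Both groups showed granule precursor genes. The signal of Atoh1 was 789, 2370, 1115 and 1983 in Math1-GFP arrays 1, 5, 7 and 9, and in the conventional arrays it ran from 573 through a median of 1005 to 1532. The ranges overlapped, and the log2 fold change of 0.55 ± 0.37 (SE) did not pass the test (adjusted p = 0.31). Zic1, a zinc finger factor of the same lineage, gave 6598 to 9035 in Math1-GFP and 6626 to 8737 in conventional arrays (-0.06 ± 0.16), and this difference turned to 0.46 after quantile normalization, where it was called (adjusted p = 0.012). Of the enzymes that make CD15, Fut9 was measured at 231, 427, 400 and 374 in Math1-GFP arrays and between 152 and 354 in conventional ones (log2 fold change 0.54 ± 0.22, adjusted p = 0.088), a difference that was called with the mean of its probe sets (0.76, adjusted p = 0.0034), with array weights (0.70, adjusted p = 0.0081), in the arrays with e1 in their titles (0.78, adjusted p = 0.028) and without Math1-GFP array 1 (0.72, adjusted p = 0.036) or conventional array 5 (0.65, adjusted p = 0.042). After quantile normalization the Fut9 difference was 0.44 and was not called (adjusted p = 0.17). Nor was it called against conventional arrays 2 to 5 alone (0.67, adjusted p = 0.051). It was 0.28 against the unnumbered conventional array and array 6 alone (adjusted p = 0.59). Fut4 stayed under the filter on low values, at most 14.9 on any of the 10 arrays.

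At an unadjusted p under 0.05 stood 4431 of 12367 genes (35.8%). In this comparison 2853 of 12367 genes passed an adjusted p of 0.05, which is 23.1%. Of these, 1347 genes (10.9%) were higher in Math1-GFP cells and 1506 (12.2%) were lower, so 47.2% of the calls were higher. A change of at least 2-fold was found in 130 higher genes (1.05%) and 146 lower genes (1.18%). Fold changes are on the scale of log2(signal + 32), where the added 32 damps noise and makes the change of dim genes smaller. The median over all genes was 0.02. With the 10 CD15 positive arrays fitted alone, 2214 genes were called (17.9%), 973 higher and 1241 lower.

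Before single genes are described, the arrays themselves need a description, since some stood apart. The first principal component of the 10 arrays placed Math1-GFP arrays at 16.3, 30.4, 32.6 and 31.1. Conventional arrays 2 to 5 lay between -43.9 and -21.5, but the unnumbered conventional array lay at 7.0 and array 6 at 16.7, on the Math1-GFP side. Over all genes, conventional arrays 2 to 5 correlated with each other at a mean of 0.965 and the unnumbered array with array 6 at 0.969, against 0.936 between these sets. Math1-GFP array 1 stood apart on the second component at 50.6, and its mean correlation with the other Math1-GFP arrays was 0.931, against 0.970 among arrays 5, 7 and 9.

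**Figure D1:**
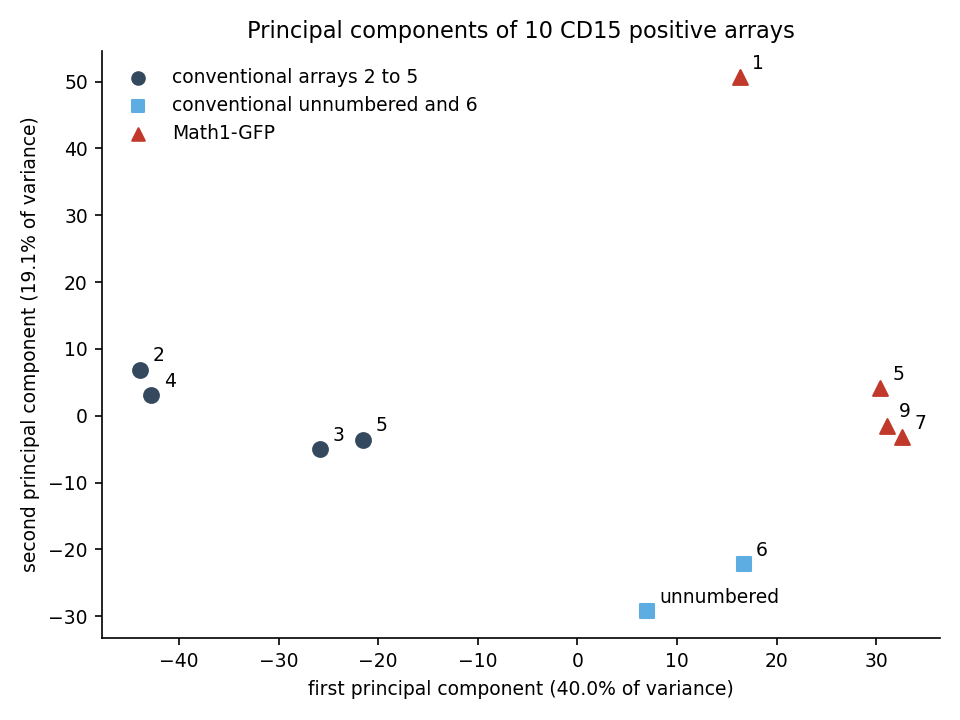
First and second principal components (axes, percent of variance) of the 10 CD15 positive arrays, each labelled with its title number. Conventional arrays 2 to 5 lie on the left, between -43.9 and -21.5 on the first component. The unnumbered conventional array and array 6 lie on the right with the Math1-GFP arrays.

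The number of calls depended on which conventional arrays entered the comparison. Against conventional arrays 2 to 5 alone, 3389 genes were called (27.4%, 13.0% higher and 14.4% lower), and against the unnumbered array and array 6 alone, 745 genes (6.02%), 232 higher (1.88%) and 513 lower (4.15%). Of the 24 genes with the largest changes, 12 in each direction, all 24 passed against arrays 2 to 5 and 1, Rgs13, passed against the unnumbered array and array 6. Of the 88 named genes that were called, 8 passed as deposited and after quantile normalization, each against all conventional arrays and against each set alone. These 6 fits are meant below by every combination of scaling and conventional set. Scaling to a common median was not among them. Where a call below ended against the unnumbered array and array 6, the paragraph says so. Both partial comparisons use the same 4 Math1-GFP arrays. The pair holds fewer arrays than the set of arrays 2 to 5, so a call against it can end without a smaller difference. Of 276 genes called with a change of at least 2-fold, 274 kept their direction against the pair and 93 passed. The sets, like the other alternatives, were chosen with earlier results of these data known.

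The genes with the largest increase in Math1-GFP cells encode a microtubule-associated ubiquitin ligase (Mid1), an ephrin receptor (Epha8), an aspartic protease (Ctse), an orphan receptor (Gpr153), a growth factor receptor (Pdgfra) and a secreted Wnt inhibitor (Sfrp1), among others. Mid1 had the largest change of all. Its signal was 1158, 2384, 676 and 288 in Math1-GFP arrays, and 411 in the unnumbered conventional array, 38.4, 14.9, 25.2 and 2.19 in arrays 2 to 5, and 2.54 in array 6. The unnumbered array thus lay inside the Math1-GFP range, and the other 5 conventional arrays lay far under it. The log2 fold change was 3.72 ± 0.74 (adjusted p = 0.0013), and it was 2.86 against the unnumbered array and array 6 alone (adjusted p = 0.11).

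Sowaha, which encodes an ankyrin repeat protein, followed the split of the conventional arrays. Its signal was 901, 889, 1117 and 720 in Math1-GFP arrays, 30.03, 22.0, 16.6 and 13.7 in conventional arrays 2 to 5, and 515 and 922 in the unnumbered array and array 6. The log2 fold change of 2.89 ± 0.80 (adjusted p = 0.013) was 4.15 against arrays 2 to 5 and 0.36 against the other pair (adjusted p = 0.83). Epha8 had the same shape, at 340 to 571 in Math1-GFP arrays, 3.79 to 35.7 in arrays 2 to 5, and 185 and 605 in the other pair, against which the difference was 0.42 (adjusted p = 0.83). The call of Epha8 ended in 6 of the 10 fits that left out 1 array (adjusted p up to 0.0588 without Math1-GFP array 7).

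Pdgfra, the platelet-derived growth factor receptor that marks oligodendrocyte precursors, did not overlap between the groups. Its signal was 803, 1683, 1528 and 2458 in Math1-GFP arrays and 90.1, 387 and 658 as lowest, median and highest of the conventional arrays, a log2 fold change of 2.12 ± 0.42 (adjusted p = 0.0013). Of the 9 measured oligodendrocyte lineage genes, Pdgfra and the myelin gene Mbp (0.75 ± 0.22, adjusted p = 0.017) were higher, against 10.9% of all genes. None was called lower against all conventional arrays, but 4 of the 9 had a value below 0. Against arrays 2 to 5 alone 2 were higher and 1 was lower, Cldn11 (-1.31, adjusted p = 0.037). Without arrays 2 to 5 the Pdgfra difference was 1.23 and missed the threshold (adjusted p = 0.10). Without Math1-GFP array 9 the call of Mbp ended (adjusted p = 0.0618), as it did against the unnumbered array and array 6 (0.29, adjusted p = 0.53).

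Rgs13, a regulator of G protein signalling, was the gene among the 24 largest that passed in every fit made. Its signal was 287, 169, 185 and 123 in Math1-GFP arrays and between 5.21 and 69.7 in conventional arrays, with no overlap. The log2 fold change was 1.94 ± 0.36 (adjusted p = 0.00073), at 1.87 against arrays 2 to 5 and 2.08 against the other pair.

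Ctse was also free of overlap, at 399 to 683 in Math1-GFP and 31.4 to 196 in conventional arrays, with a log2 fold change of 2.29 ± 0.37 (adjusted p = 0.00021), although 1 other probe set of this gene moved the opposite way, and against the unnumbered array and array 6 it was 1.19 (adjusted p = 0.064). The remaining genes with large increases were Gpr153 (2.13), Plagl1 (2.09), an imprinted zinc finger gene, Prmt8 (2.07), an arginine methyltransferase of the brain, the uncharacterised Gm20559 (1.96) and Cadps2 (1.94), a priming factor of dense-core vesicles. Their adjusted p ran from 0.0052 for Plagl1 to 0.041 for Cadps2. None of these 5 was called against the unnumbered array and array 6 alone, with 0.66 for Gpr153 (adjusted p = 0.64), 1.43 for Plagl1 (0.24), 0.46 for Prmt8 (0.76), 1.23 for Gm20559 (0.34) and 0.69 for Cadps2 (0.65). Leaving out 1 array ended the call of Cadps2 in 7 of 10 fits, of Gpr153 and Prmt8 in 6 each and of Gm20559 in 1 (without Math1-GFP array 5), with adjusted p up to 0.108, for Cadps2 without Math1-GFP array 1.

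**Figure D2:**
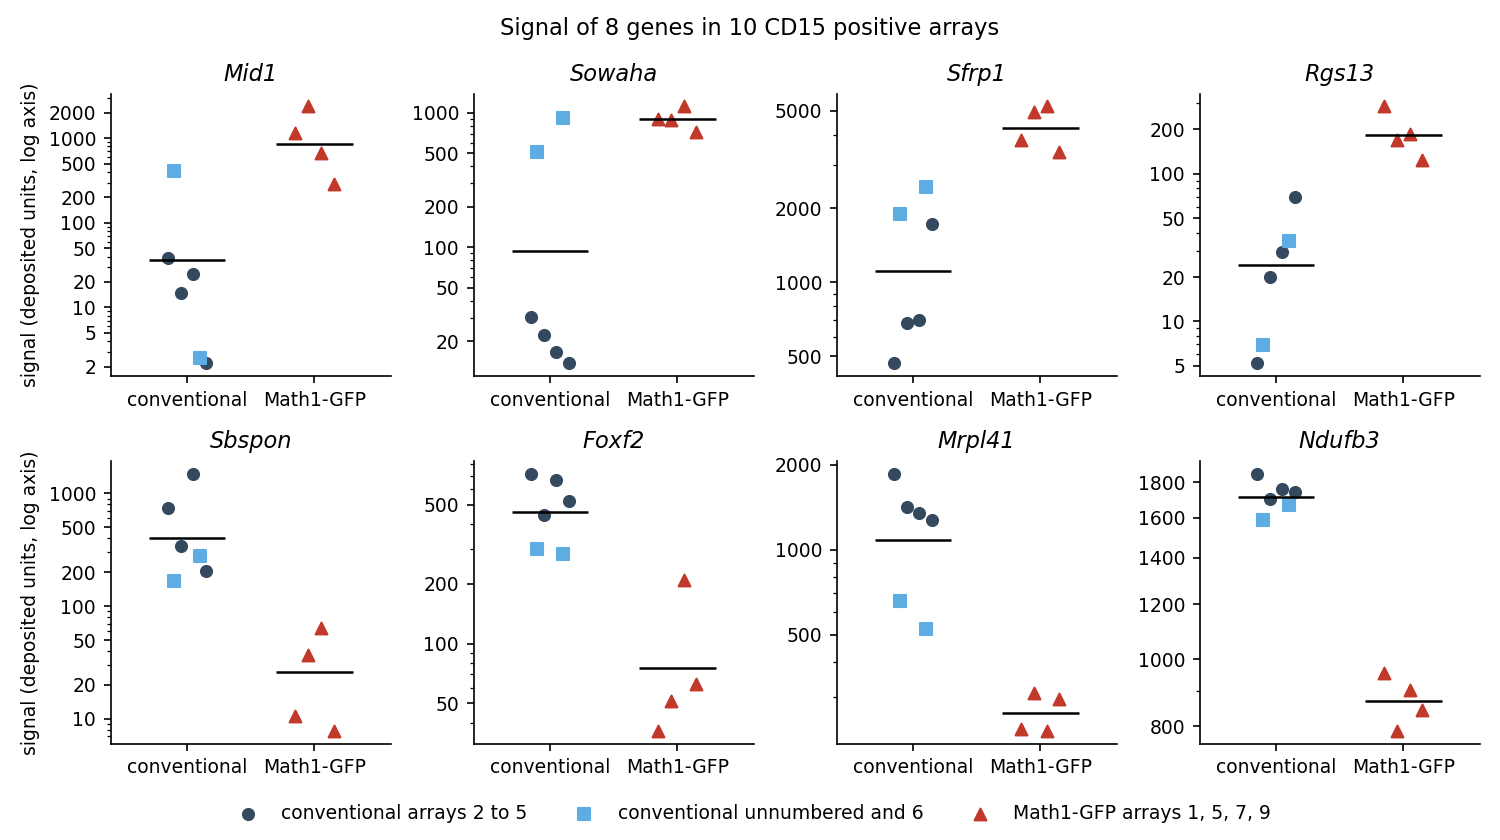
Deposited signal (log axis) of 8 genes in each of the 10 CD15 positive arrays, with circles for conventional arrays 2 to 5, squares for the unnumbered conventional array and array 6, triangles for Math1-GFP, and a line at the group mean taken on the log2(signal + 32) scale. For Sowaha the squares lie near the triangles, and for Rgs13, Mrpl41 and Ndufb3 all 6 conventional arrays lie apart from the Math1-GFP arrays.

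The genes with the largest decrease included genes of mesenchyme and of macrophages. Edaradd, an adaptor of the ectodysplasin receptor, gave 15.3, 15.8, 20.9 and 22.5 in Math1-GFP arrays. In conventional arrays it gave 1578, 1398, 917 and 213 in numbers 2 to 5, 120 in number 6 and 25.6 in the unnumbered one. The groups did not overlap, the unnumbered array was the nearest to Math1-GFP, and the log2 fold change was -3.02 ± 0.96 (adjusted p = 0.027), or -0.89 against the unnumbered array and array 6 (adjusted p = 0.69). The call ended in 7 of the 10 fits that left out 1 array, with adjusted p up to 0.0624 without conventional array 2.

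Sbspon, an extracellular matrix protein, gave 10.5, 36.5, 64.5 and 7.83 in Math1-GFP arrays and at least 168 in conventional arrays. Its log2 fold change was -2.90 ± 0.64 (adjusted p = 0.0029), and -2.11 against the unnumbered array and array 6 alone (adjusted p = 0.13). Upp1, which breaks down uridine, was at least 129.9 in conventional arrays and at most 71.0 in Math1-GFP arrays (-2.45 ± 0.53, adjusted p = 0.0024), a difference that was -1.30 against the unnumbered array and array 6 (adjusted p = 0.18).

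Foxf2 and Meox2, transcription factors of mesenchymal and mesodermal cells, and Aldh1a2, which makes retinoic acid and is known from the meninges, were all lower. Foxf2 was 36.3, 51.4, 210 and 62.9 in Math1-GFP arrays against 284 to 717 in conventional arrays, with no overlap (-2.21 ± 0.42, adjusted p = 0.00095). Meox2 was 1.10 to 4.61 in Math1-GFP arrays, 94.0 to 428 in conventional arrays 2 to 5, and 10.6 and 16.1 in the unnumbered array and array 6 (-2.20 ± 0.76, adjusted p = 0.041). Aldh1a2 overlapped between the groups, with conventional arrays from 55.4 to 1417 and Math1-GFP arrays up to 103 (-2.34 ± 0.82, adjusted p = 0.045). The calls ended against the unnumbered array and array 6 alone, at -1.60 for Foxf2 (adjusted p = 0.11), -0.39 for Meox2 (0.84) and -0.35 for Aldh1a2 (0.87). Foxf2 was called whichever array was left out, whereas the call ended in 8 of 10 such fits for Meox2 (up to 0.0918 without conventional array 4) and in 7 for Aldh1a2 (up to 0.135 without Math1-GFP array 9).

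Neurod4, a proneural factor, was 9.11, 32.4, 50.5 and 18.3 in Math1-GFP arrays, 372 to 446 in conventional arrays 2 to 5, and 118 and 35.0 in the unnumbered array and array 6 (-2.19 ± 0.65, adjusted p = 0.019, and 0.0556 without Math1-GFP array 1). Ndn, an imprinted gene of neurons (-2.16 ± 0.54, adjusted p = 0.0074), and the uncharacterised Gm5617 (-2.04 ± 0.35, adjusted p = 0.00030) completed the largest decreases together with the macrophage genes. Against the unnumbered array and array 6 the difference was -0.80 for Neurod4 (adjusted p = 0.62), -1.15 for Ndn (0.37) and -1.15 for Gm5617 (0.094).

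Foxf2, Meox2 and Aldh1a2 stand beside markers of mural cells and fibroblasts, of which 0 of 14 measured were called. The mean log2 level of that marker list ran from 6.20 to 7.82 in conventional arrays and was 7.42, 6.46, 6.19 and 6.35 in Math1-GFP arrays. The part of such cells in the lower level of Foxf2, Meox2 and Aldh1a2 was not tested. In sorted bulk samples, fewer cells of a type and less RNA per cell cannot be told apart.

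Of 16 measured markers of microglia and macrophages 4 were called lower, against 12.2% of all genes. All 16 had a log2 fold change below 0, with a median of -1.48, against 48.6% of all genes below 0. C1qa, a subunit of complement C1q, was 241, 44.6, 52.1 and 28.6 in Math1-GFP arrays and 119 to 2576 in conventional arrays (-2.36 ± 0.73, adjusted p = 0.025). Array 1 was the highest of the Math1-GFP arrays and lay inside the conventional range. C1qb (-2.02), Cx3cr1 (-1.12) and Tyrobp (-2.02) were the other called markers. Each of the 4 calls ended in 5 to 7 of the 10 fits that left out 1 array, with adjusted p for C1qa up to 0.0757 without Math1-GFP array 9 and for Tyrobp up to 0.119 without Math1-GFP array 5. All 4 also ended when the 10 CD15 positive arrays were fitted alone, at adjusted p of 0.064 for C1qa, 0.085 for C1qb, 0.10 for Cx3cr1 and 0.089 for Tyrobp.

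Against conventional arrays 2 to 5 alone 14 of the 16 were lower, with a median of -2.23, and against the unnumbered array and array 6 alone 0 of 16 were called, with a median of -0.08. The mean log2 level of the 16 markers ran from 6.52 through a median of 7.64 to 9.68 in conventional arrays and was 7.44, 6.06, 6.25 and 6.11 in Math1-GFP arrays. The defining markers P2ry12 and Aif1 were as low as 3.33 and 0.712 in a Math1-GFP array, but neither was called against all conventional arrays. Both were lower against arrays 2 to 5 alone (-1.24 and -2.26, adjusted p = 0.0037 and 0.0045). With the unnumbered array and array 6 alone the differences were 0.44 and 0.17 (adjusted p = 0.33 and 0.88). The macrophage-expressed genes Wfdc17 (-2.12) and Lyz1 (-2.67), the latter a near-identical copy of Lyz2 whose probe sets may share signal, belonged to the 12 largest decreases, and each call ended in 6 of the 10 fits without 1 array (adjusted p up to 0.136 for Lyz1 without Math1-GFP array 5) and against the unnumbered array and array 6 (-0.31 for Wfdc17 and -1.11 for Lyz1). The part of macrophages in other results was not tested.

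Markers of other cell types that a CD15 sort could hold were called in few cases. None of the 7 neutrophil markers measured was called, and their mean log2 level was 5.46 to 6.43 in conventional arrays and 7.26, 5.55, 5.51 and 5.79 in Math1-GFP arrays, highest in array 1. Lcn2, a neutrophil granule protein, was 4067, 77.9, 14.3 and 127.9 in Math1-GFP arrays. Of 10 endothelial markers 1 was called, Ramp2, a receptor-modifying protein of vessels, which was lower (-1.51 ± 0.33, adjusted p = 0.0028, and -1.18 with an adjusted p of 0.11 against the unnumbered array and array 6). No marker was called among 6 of choroid plexus and ependyma, 3 of lymphocytes and 4 of Purkinje cells and interneurons. Against conventional arrays 2 to 5 alone, Pvalb of interneurons (-2.71, adjusted p = 0.035) and Clic6 of choroid plexus (-2.29, adjusted p = 0.015) were lower, and both were also called with array weights.

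None of 4 sex-linked genes was called against all conventional arrays, and 2 were lower against arrays 2 to 5 alone, Eif2s3y (-3.28, adjusted p = 0.027) and Kdm5d (-1.68, adjusted p = 0.048). Eif2s3y, a Y-linked gene, gave 2.17, 0.222, 1.72 and 0.469 in Math1-GFP arrays and 0.511, 303 and 721 as lowest, median and highest in conventional arrays. Xist, the RNA that silences an X chromosome, gave 5211, 7209, 2153 and 62.5 in Math1-GFP arrays and from 2.28 to 7693 in conventional arrays. Neither passed against all conventional arrays (adjusted p = 0.14 and 0.28), and the part of sex in other genes was not tested.

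Of 17 Hedgehog pathway genes measured, 5 were higher (29.4%, against 10.9% of all genes) and 0 were lower, with a median log2 fold change of 0.26 and 5 of 17 below 0. The same count, 5 higher and 0 lower, was found after quantile normalization, where 7.84% of all genes were higher and 14.3% lower. Against conventional arrays 2 to 5 alone 7 were higher and 1 lower, the repressor-forming factor Gli3 (-1.43, adjusted p = 0.022), and against the unnumbered array and array 6 alone 1 was higher, Gas1. Ptch1 and Gli1, which report pathway activity, were not among the called members. Ptch1, itself a target, was 831, 2219, 2077 and 4258 in Math1-GFP arrays and 1114 to 2800 in conventional arrays, with a log2 fold change of 0.23 ± 0.44 that is -0.01 against the unnumbered array and array 6 alone. Gli1, the effector whose own transcription follows the pathway, was 361, 650, 606 and 602 against 513 to 822, with a change of -0.16 ± 0.23 that turns to 0.02 without Math1-GFP array 1. Their adjusted p were 0.74 and 0.66.

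Among receptors and co-receptors, Gas1, a co-receptor that helps cells receive Hedgehog, was higher. Its signal was 1770, 1620, 1534 and 952 in Math1-GFP arrays and 441, 647 and 787 as lowest, median and highest in conventional arrays. The groups did not overlap. The log2 fold change was 1.14 ± 0.21 (adjusted p = 0.00058), and it was 1.21 and 1.00 against the conventional sets taken alone, both called. The co-receptors Boc (0.15 ± 0.24) and Cdon (-0.15 ± 0.27) and the transducer Smo (0.41 ± 0.28) were not called.

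Among effectors and targets, Gli2, the main activator of the pathway, was 783 to 1013 in Math1-GFP arrays and 356 to 709 in conventional arrays (0.82 ± 0.23, adjusted p = 0.013). Foxm1, a factor for mitotic genes, was 462, 590, 464 and 482 against 153 to 348 (1.23 ± 0.22, adjusted p = 0.00056). Sfrp1 was 3819, 4926, 5211 and 3386 against 468 to 2446 (1.91 ± 0.43, adjusted p = 0.0034). The survival gene Bcl2 was 82.3 to 187 against 57.8 to 78.9 (0.64 ± 0.18, adjusted p = 0.014), and it was not called after quantile normalization (adjusted p = 0.059). All 4 calls ended against the unnumbered array and array 6 alone, with 0.43 for Gli2 (adjusted p = 0.40), 0.82 for Foxm1 (0.11), 0.97 for Sfrp1 (0.23) and 0.78 for Bcl2 (0.08). Mycn (0.71 ± 0.30, adjusted p = 0.097, and 0.037 after quantile normalization), Ccnd1 (-0.14 ± 0.14) and Hhip (0.70 ± 0.36) were not called.

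Few granule precursor factors and differentiation genes were called. Of 14 precursor factors (median 0.08, and -0.09 with a common median) 1 was called, Pax6, which was 2497, 816, 1025 and 1043 in Math1-GFP arrays and 267 to 767 in conventional arrays (1.18 ± 0.38, adjusted p = 0.030). Of 19 neuronal differentiation genes 3 were higher, namely Map2 (1.03 ± 0.33, adjusted p = 0.031), Syt1 (0.80 ± 0.28, adjusted p = 0.040, and 0.073 after quantile normalization) and Dcx (0.59 ± 0.21, adjusted p = 0.050). Neither list had a called member against the unnumbered array and array 6 alone. Of 11 neural stem cell genes 2 were higher, Sox2 (1.08 ± 0.32, adjusted p = 0.018) and Id1 (1.29 ± 0.44, adjusted p = 0.038), against 10.9% of all genes. Of the 11, 5 had a value below 0. Against arrays 2 to 5 alone 4 were higher and 1 was lower, Prom1 (-0.94, adjusted p = 0.043). Leaving out 1 array ended the call of Pax6 in 3 of 10 fits, Dcx in 9, Syt1 and Map2 in 6, Id1 in 7 and Sox2 in 2. The highest adjusted p was 0.188, for Dcx without Math1-GFP array 1. Against the unnumbered array and array 6 alone Sox2 was called (1.28, adjusted p = 0.041) and Id1 was not (0.31, adjusted p = 0.76).

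Of 14 genes of CD15 synthesis, 2 were higher and 2 lower, counts near the 10.9% higher and 12.2% lower among all genes. Fut8, which adds core fucose to proteins and does not build the CD15 epitope, was 1166, 1349, 1546 and 1310 in Math1-GFP arrays and 504 to 958 in conventional arrays (0.92 ± 0.18, adjusted p = 0.0013), with a difference of 0.56 against the unnumbered array and array 6 (adjusted p = 0.15). Fut10 was also higher (0.95 ± 0.28, adjusted p = 0.021), but not after quantile normalization (adjusted p = 0.064) or without Math1-GFP array 5 (adjusted p = 0.0777) or 7, and it was 0.32 against the unnumbered array and array 6 (adjusted p = 0.55). Gfus, which makes the fucose donor, was 348, 399, 351 and 403 against 497 to 805 (-0.60 ± 0.13, adjusted p = 0.0031), and was called against each conventional set alone. B4galt6 was lower (-0.66 ± 0.14, adjusted p = 0.0025), but the mean of its probe sets gave 0.11, and against the unnumbered array and array 6 it was -0.43 (adjusted p = 0.20).

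Genes of the mitochondrial ribosome, which translates the proteins encoded in mitochondrial DNA, were lower under both scalings and against both conventional sets. Of 73 measured proteins of the mitochondrial ribosome, found by their Mrpl and Mrps symbols after earlier results had been seen, 60 were lower and 0 higher, against 12.2% of all genes. Their median log2 fold change was -0.65, 72 of 73 had a value below 0 (48.6% of all genes did), and 54 were lower with no overlap between the groups (9.56% of all genes were). Of the 73, 9 lay among the brightest 1237 genes. After quantile normalization 59 were lower, with a median of -0.66. Against the unnumbered array and array 6 alone 34 were lower, with a median of -0.64. In CD15 negative cells, where 10.5% of all genes were lower and 7.91% higher, 48 were lower, with a median of -0.54.

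Mrpl41, a protein of the large mitochondrial subunit, was 231, 311, 228 and 295 in Math1-GFP arrays. It was 657 in the unnumbered conventional array, 1860, 1416, 1352 and 1271 in arrays 2 to 5 and 525 in array 6. All Math1-GFP arrays lay under all conventional arrays, with a log2 fold change of -1.91 ± 0.29 (adjusted p = 0.00013). Mrpl39 was 680, 1062, 1016 and 1326 against 2028 to 2510 (-1.16 ± 0.16, adjusted p = 6.4e-05). Mrpl50 (0.05 ± 0.16) and Mrpl1 (-0.03 ± 0.12) were members that did not pass.

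Genes of the respiratory chain, which makes ATP in mitochondria, were called lower in 23 of 31 cases and higher in 0, with a median of -0.59, against 12.2% of all genes called lower. Of the 31, 27 lay in the brightest of 10 equal bins of genes, where 39.8% of all genes were lower with a median of -0.28. Ndufb3, a subunit of complex I, was 955, 788, 901 and 843 in Math1-GFP arrays and 1585, 1722 and 1850 as lowest, median and highest in conventional arrays. The groups lay far apart relative to their spread, with a log2 fold change of -0.95 ± 0.09 (adjusted p = 3.1e-06). Cox17, a copper chaperone of complex IV that was not on the list, was 516 to 790 against 1703 to 2190 (-1.54 ± 0.16, adjusted p = 3.6e-06). After quantile normalization 16 of 31 were lower, with a median of -0.28, against the unnumbered array and array 6 alone 18 were lower, and 4 members passed in every combination of scaling and conventional set.

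The proteasome, the complex that degrades ubiquitin-tagged proteins, showed 21 of 28 subunits lower and 0 higher, with a median of -0.51, and 26 of the 28 lay in that brightest bin, where 39.8% of all genes were lower. Psmb3 was 1891, 1653, 1510 and 1800 in Math1-GFP arrays and 2689 to 4206 in conventional arrays (-0.96 ± 0.13, adjusted p = 4.9e-05). Psmb5, a catalytic subunit, was 1151 to 1271 against 1681 to 2167 (-0.66 ± 0.10, adjusted p = 0.00013). After quantile normalization 12 of 28 were lower, with a median of -0.28. Against the unnumbered array and array 6 alone 10 were lower, and 2, Psmb3 and Psmb5, passed in every combination of scaling and conventional set.

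Promoters of 4 called genes of these groups are shown, among them a pair that shares a stretch. Sequences are from RefSeq on build GRCm38.p6, and 70 promoter windows matched 64 of the mitochondrial ribosomal genes. Each window holds 250 bases before and 50 after a start. Of 3 motifs searched, GCGC and TGCGC parted by any 1 base, which resembles the site of nuclear respiratory factor NRF-1, was present on either strand in 6 of 23 windows of respiratory chain genes (26.1%), 6 of 25 of proteasome genes and 12 of 70 of mitochondrial ribosomal genes (17.1%). It was present in 9.70% of windows of all genes tested, 4.60% of all windows and 2 of 21 windows of cytosolic ribosomal genes (9.52%). Not all genes with a match were called: 3 of 6 were lower in the respiratory chain (Sdha, Sdhd and Uqcrc1 were not called), 5 of 6 in the proteasome (Psmc4 was not) and 10 of 12 in the mitochondrial ribosome (Mrpl57 and Mrpl9 were not). Psma2, a proteasome subunit (-0.62 ± 0.10, adjusted p = 0.00013), and Mrpl32, a mitochondrial ribosomal protein (-0.53, adjusted p = 0.0053), start in opposite directions from one stretch. The stretch between their starts is given first, then the bases before the starts of Mrpl39 and Mrpl12 (-0.91, adjusted p = 2.9e-05), with matches in capitals.
Mrpl32 to Psma2, chr13:14613038-14613241, plus strand: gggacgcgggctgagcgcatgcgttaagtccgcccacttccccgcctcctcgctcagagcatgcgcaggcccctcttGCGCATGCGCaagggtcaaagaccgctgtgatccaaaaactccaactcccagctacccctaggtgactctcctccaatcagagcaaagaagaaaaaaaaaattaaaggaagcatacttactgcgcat
Mrpl39, chr16:84735245-84735494, minus strand: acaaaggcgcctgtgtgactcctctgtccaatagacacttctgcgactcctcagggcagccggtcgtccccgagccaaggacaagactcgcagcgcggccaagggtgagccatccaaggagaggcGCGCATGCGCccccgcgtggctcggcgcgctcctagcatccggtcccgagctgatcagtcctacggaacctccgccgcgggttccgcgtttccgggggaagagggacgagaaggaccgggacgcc
Mrpl12, chr11:120484387-120484636, plus strand: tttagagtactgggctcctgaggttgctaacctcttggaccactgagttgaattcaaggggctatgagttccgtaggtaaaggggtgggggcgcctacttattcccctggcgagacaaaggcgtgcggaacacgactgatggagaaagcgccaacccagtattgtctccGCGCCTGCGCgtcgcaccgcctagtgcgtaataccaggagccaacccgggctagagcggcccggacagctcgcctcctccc

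Counted from each gene's start, the match began at -127 for Psma2, -87 for Mrpl32, -125 for Mrpl39 and -81 for Mrpl12. A match is a description of the sequence and not of binding. The other motifs were CCGGAAG, an ETS-type core found in 16.6% of windows of genes tested and in 10 of 25 proteasome, 22 of 70 mitochondrial ribosomal, 3 of 23 respiratory chain and 0 of 14 Hedgehog windows, and GACCACCCA, a Gli-type site found in 0.186% of windows of genes tested and in 0 of 14 windows of Hedgehog genes. None of the 3 motifs contains another.

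Cytosolic ribosomal protein genes were lower as deposited, but not after the arrays were put on one distribution. Of 19 measured, 16 were lower and 0 higher with a median of -0.72, and 1 was lower with a median of -0.09 after quantile normalization. Rpl22 was 7445, 8447, 8315 and 7677 in Math1-GFP arrays and 12709 to 18274 in conventional arrays (-0.84 ± 0.14), and its difference was -0.18 after quantile normalization (adjusted p = 0.15). Spliceosome and RNA-binding protein genes turned direction with the scaling, with 1 higher and 7 lower of 31 as deposited (median -0.11) and 7 higher and 1 lower after quantile normalization (median 0.18).

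These genes are among the brightest, and the brightest genes differed in scale between the groups. When genes were ordered by mean level and divided into 10 equal bins, in the brightest bin the median log2 fold change was -0.28, with 74 genes higher and 492 lower, and after quantile normalization it was -0.01, with 189 higher and 256 lower. In the other bins the median lay between -0.03 and 0.09. The 99th percentile of the signal was 4955 ± 253 (SD, n = 6) in conventional and 3828 ± 158 (SD, n = 4) in Math1-GFP arrays with no overlap (exact permutation test, two-sided, p = 0.0048, the smallest this design allows, adjusted p = 0.033 over 7 measures). The 99th percentile was added as a measure after seeing the data, so its p-value is a description. The part of this difference in scale in the lower ribosomal genes was not tested otherwise than by the quantile values given.

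Of the 6 other array measures 5 passed after adjustment over 7. The median signal was 24.9 ± 1.94 (SD, n = 6) in conventional and 28.5 ± 2.99 (SD, n = 4) in Math1-GFP arrays (exact permutation p = 0.038, adjusted 0.044). The log2 ratio of 3′ to 5′ probe sets of Gapdh, a measure of RNA integrity and labelling, was -0.24 ± 0.11 and -0.44 ± 0.03 (exact permutation p = 0.0095, adjusted 0.033). The percent of probe sets under a signal of 32 was 54.9 ± 1.31 and 52.1 ± 1.83 (exact permutation p = 0.033, adjusted 0.044). The log2 level of hybridization spikes, added after labelling, was 12.11 ± 0.70 and 11.13 ± 0.37 (exact permutation p = 0.033, adjusted 0.044). For the probe sets of polyA spikes, meant to be added to the RNA, it was 1.37 ± 0.35 and 0.62 ± 0.51 (exact permutation p = 0.029, adjusted 0.044). These polyA levels lie far under the median signal, near the floor, and do not show that such spikes were added. For actin the 3′ to 5′ ratio was 0.67 ± 0.17 and 0.48 ± 0.11 (exact permutation p = 0.081). Their part in the gene differences was not tested.

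**Figure D3:**
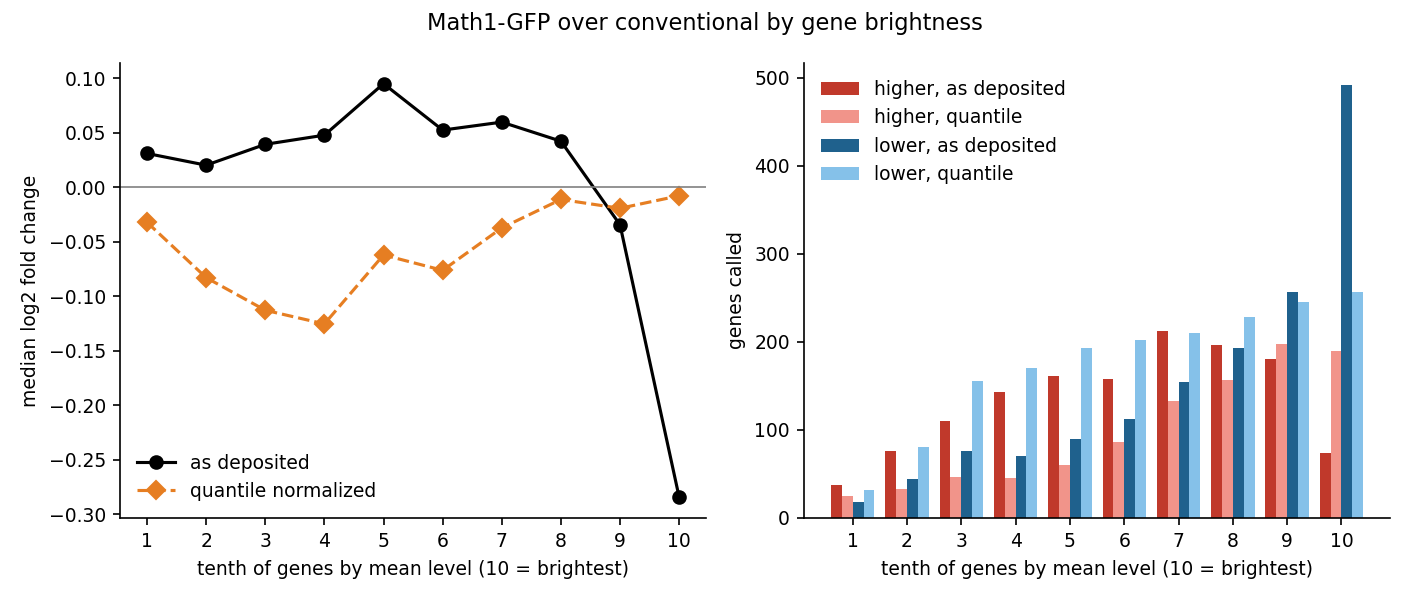
Left, median log2 fold change (Math1-GFP over conventional) in 10 bins of genes ordered by mean level, as deposited (black) and after quantile normalization (orange). Right, number of genes called higher or lower in each bin under both scalings. The brightest bin falls to -0.28 as deposited and lies at -0.01 after quantile normalization.

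Scaling also moved the balance of calls. Quantile normalization called 2744 genes, 971 higher and 1773 lower (35.4% higher), and shared 2086 calls with the deposited values, 2085 of them in the same direction. Scaling each array to a common median called 2391 genes, 371 higher and 2020 lower (15.5% higher), and shifted the median of all genes to -0.12, so that changes under that scaling are relative to it. Under quantile normalization 1255 of the 1506 lower calls and 831 of the 1347 higher calls were kept.

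**Figure D4:**
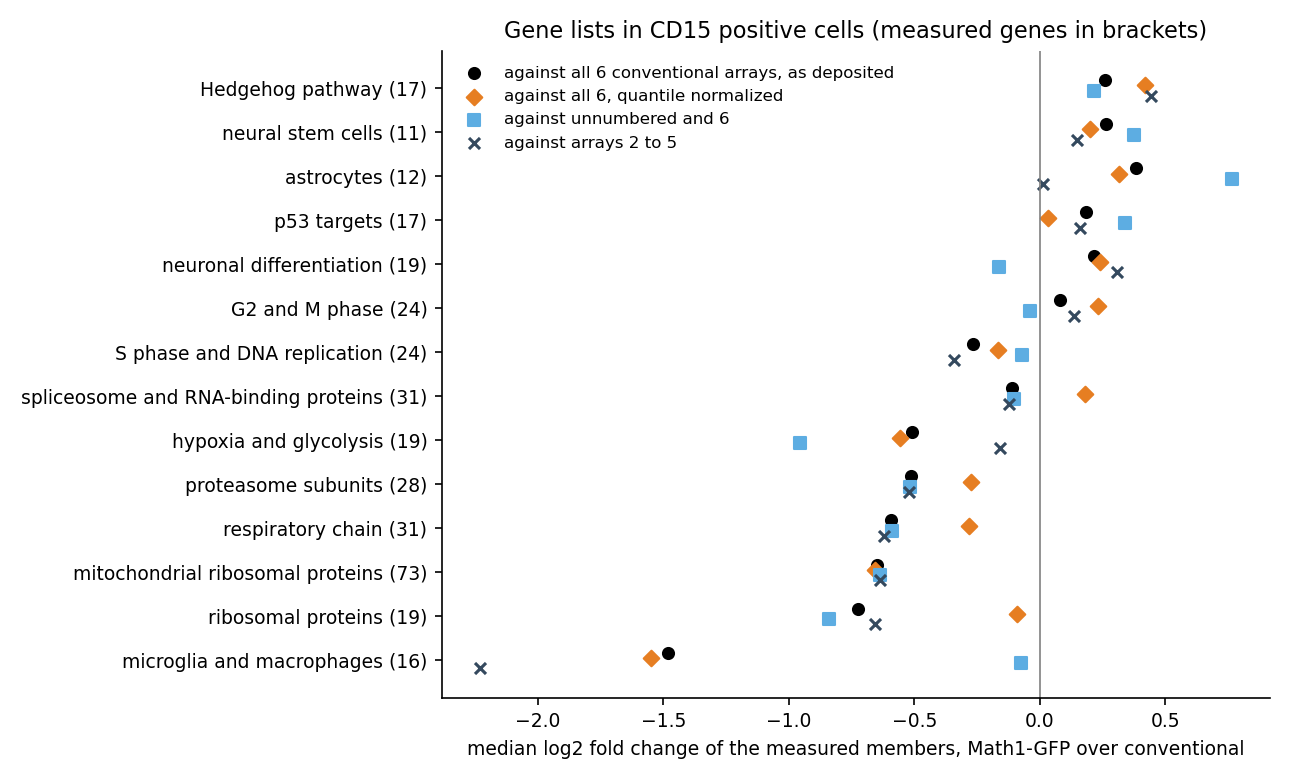
Median log2 fold change (Math1-GFP over conventional) of the measured members of 14 gene groups, with the number of measured genes in brackets, against all conventional arrays as deposited and after quantile normalization, and against each set of conventional arrays. Mitochondrial ribosomal proteins lie near -0.65 in all 4, whereas cytosolic ribosomal proteins move from -0.72 to -0.09 with quantile normalization and microglial markers from -2.23 to -0.08 with the conventional set.

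The cell cycle lists were mixed. Of 24 S phase genes 6 were lower and 0 higher (median -0.27), 2 lower and 1 higher after quantile normalization, and 0 of either against the unnumbered array and array 6 alone. In CD15 negative cells 1 was lower and 4 were higher. The share of all genes called lower in CD15 positive cells was 12.2%. Of the 24, 12 lay in the brightest bin, where 39.8% of all genes were lower with a median of -0.28. Among the lower genes was a replication helicase subunit, Mcm5, at 2173, 1899, 2661 and 2495 in Math1-GFP arrays and 2888 to 4356 in conventional arrays (-0.64 ± 0.13, adjusted p = 0.0013). Another probe set of Mcm5 moved the opposite way, and after quantile normalization its adjusted p was 0.058. Mcm7, also called lower, had a difference of 0.01 after quantile normalization. Of 24 genes of G2 and M phase 3 were higher (10.9% of all genes were), the kinetochore genes Cenpf (0.80 ± 0.18, adjusted p = 0.0038) and Cenpe (0.84 ± 0.21, adjusted p = 0.0062) and the cytokinesis gene Ect2 (0.63 ± 0.19, adjusted p = 0.024, and 0.0823 without Math1-GFP array 5). Birc5, or survivin (-0.61 ± 0.12, adjusted p = 0.00083), and Ube2c (-0.63 ± 0.21, adjusted p = 0.033) were lower, Ube2c not after quantile normalization (adjusted p = 0.40). None of the 24 was called against the unnumbered array and array 6 alone. The median of that list was 0.08 as deposited and -0.11 with a common median.

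Of 19 hypoxia and glycolysis genes 4 were lower and 1 higher (median -0.51), beside 12.2% lower and 10.9% higher among all genes. Against the unnumbered array and array 6 alone 9 were lower and 0 higher (median -0.96). Among all genes 4.15% were lower and 1.88% higher there. Against arrays 2 to 5 alone 2 were lower and 3 higher (median -0.16), beside 14.4% lower and 13.0% higher among all genes. Egln3, an oxygen-sensing hydroxylase induced by hypoxia, was 13.4, 32.01, 31.1 and 49.7 in Math1-GFP arrays and 59.2 to 224 in conventional arrays (-1.13 ± 0.27, adjusted p = 0.0050), and was called in every combination of scaling and conventional set. Hk2, which starts glycolysis, was the member that was higher (1.11 ± 0.36, adjusted p = 0.029), and the glucose transporter Slc2a1 was lower (-0.82 ± 0.23, adjusted p = 0.014). The call of Hk2 ended in 7 of the 10 fits without 1 array (adjusted p up to 0.0839 without Math1-GFP array 5), and that of Slc2a1 without Math1-GFP array 5 or 9. Both calls ended against the unnumbered array and array 6 (0.38 and -0.96, adjusted p = 0.67 and 0.094).

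Counts in the remaining lists stand beside 10.9% higher and 12.2% lower among all genes. Of 17 p53 targets 2 were higher, Mdm2 at 341 to 462 against 161 to 304 (0.70 ± 0.15, adjusted p = 0.0020) and Zmat3 (0.55 ± 0.18, adjusted p = 0.032, and 0.11 after quantile normalization). Of 14 insulin-like growth factor genes 2 were higher, the signalling adaptor Irs1 (0.97 ± 0.28, adjusted p = 0.018) and the receptor Igf1r (0.90 ± 0.27, adjusted p = 0.022). Of 20 immediate early genes 1 was lower, the antiproliferative Btg2 (-1.54 ± 0.35, adjusted p = 0.0033), and of 15 chaperones 3 were lower, led by Hspe1 (-1.02 ± 0.22, adjusted p = 0.0027). Leaving out 1 array ended the call of Zmat3 in 6 of 10 fits, of Igf1r in 4 and of Irs1 in 2, with adjusted p up to 0.105 for Zmat3 without Math1-GFP array 9. Against the unnumbered array and array 6 alone Mdm2 (0.48, adjusted p = 0.11), Irs1 (0.43, 0.53), Igf1r (0.18, 0.73) and Btg2 (-0.98, 0.22) were not called, while Zmat3 (0.83, 0.043) and Hspe1 (-1.14, 0.045) were. None of 15 Notch pathway genes was called.

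The same contrast in CD15 negative cells called 2274 genes, which is 18.4% of those tested, 978 higher and 1296 lower. Whether the model difference depended on the CD15 fraction was tested with the interaction, where limma called 0 genes and 279 (2.26%) had an unadjusted p under 0.05. The differences described above were therefore not shown to be particular to CD15 positive cells. For Mid1 the difference in CD15 negative cells was 3.29, for Rgs13 1.48, for Gas1 0.88 and for Ndufb3 -0.82.

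A set of 320 genes was called against all conventional arrays and against each conventional set, as deposited and after quantile normalization alike, 68 higher and 252 lower. Among the largest members, chosen after their values were seen, were on the lower side Mrpl41, Dnajc17 (-1.83 ± 0.29), Cox17, Fam162a (-1.35 ± 0.19), a mitochondrial protein induced by hypoxia, and Nop10 (-1.22 ± 0.13), which helps modify ribosomal RNA. Nop10 was 2044, 2208, 2332 and 2299 in Math1-GFP arrays and 4260 to 6618 in conventional arrays. On the higher side were Rgs13, Dlgap1 (1.51 ± 0.21), a postsynaptic scaffold protein, Dner (1.38 ± 0.23), a neuronal Notch ligand, Tshz3 (1.27 ± 0.21), a zinc finger factor, Rgmb (1.27 ± 0.18), a co-receptor of bone morphogenetic proteins, and Itgb1 (1.21 ± 0.15), the integrin beta-1 chain. Itgb1 was 827, 559, 723 and 825 in Math1-GFP arrays and 235 to 384 in conventional arrays, with no overlap.

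Genes also differed by their length in the genome, a property examined after these values were seen. Of 1553 genes spanning under 5 kb, 25.9% were lower and 2.70% higher, with a median log2 fold change of -0.23. Of 1708 genes spanning over 100 kb, 2.87% were lower and 19.1% higher, with a median of 0.18. The medians of the 4 classes between rose in order of span, from -0.12 through -0.07 and 0.06 to 0.15.

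The order was the same after quantile normalization, where the medians ran from -0.24 for the shortest to 0.08 for the longest class, and against the unnumbered array and array 6 alone, where they ran from -0.15 to 0.23. Within genes between the 50th and 80th percentile of mean level it ran from -0.34 to 0.26. In CD15 negative cells the medians ran from -0.21 to 0.06, highest in the class of 50 to 100 kb. The classes share arrays and genes are not independent replicates, so these are descriptions. The part of the array measures above in this pattern was not tested.

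**Figure D5:**
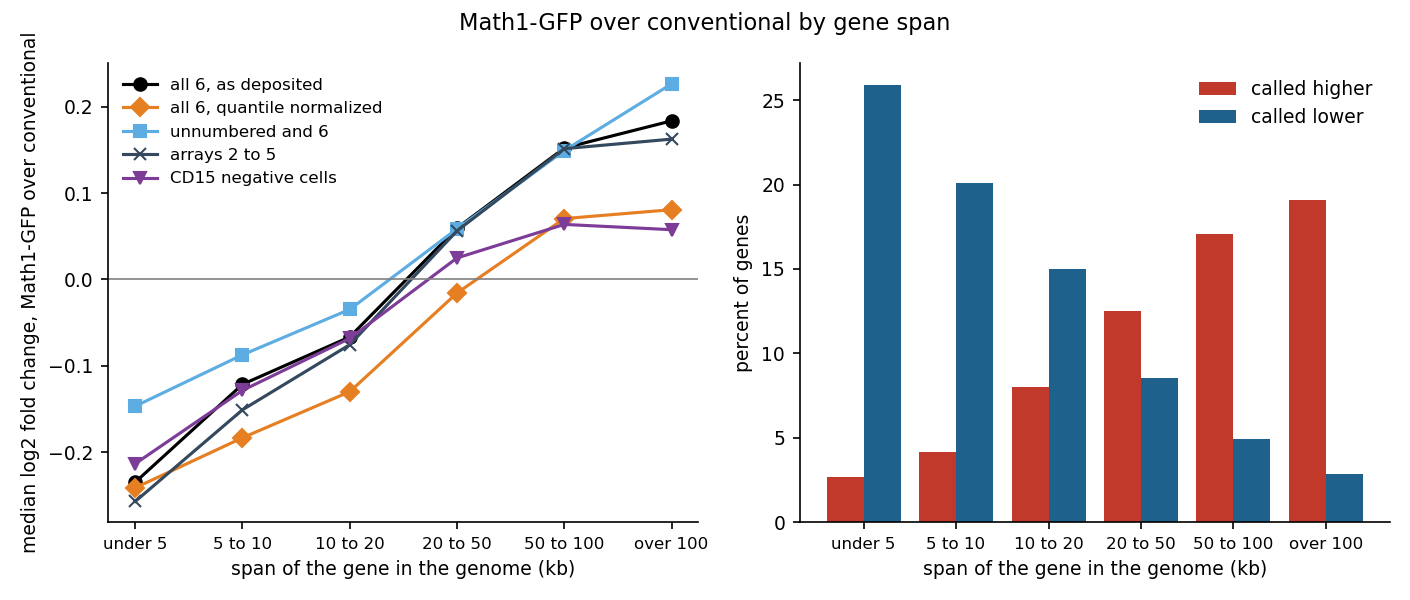
Left, median log2 fold change (Math1-GFP over conventional) of genes grouped by their span in the genome in kb, under 5 fits. Right, percent of genes in each class called higher (red) or lower (blue) in CD15 positive cells as deposited. Calls pass from 25.9% lower in the shortest class to 19.1% higher in the longest.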

How the data were processed

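The deposited values are linear-scale intensities, 1 per probe set of the Affymetrix Mouse Genome 430 2.0 array. The authors' software and settings are not given in the sources used here. Each array's mean, without 2% of values at each end, is 150.0, while the distributions differ between arrays. The members, gene lists and alternatives were chosen with earlier results of these data known.

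Of 45101 probe sets, 64 controls, those without exactly 1 gene symbol (932 with several, 9211 with none) and those under the 40th percentile of mean level (signal 15.5) were left out, and a gene was represented by its probe set of highest mean. Of 34958 probe sets with 1 symbol, 34754 matched the reference table (GRCm38.p6, used for names and gene spans). A model of 4 group means over all 21 arrays was fitted to log2(signal + 32) with limma 3.58.1, run in R 4.3.3, leaving 17 residual degrees of freedom, with two-sided p-values adjusted by Benjamini-Hochberg over 12367 genes and a threshold of 0.05. Single array measures were tested with an exact permutation test over 210 splits. Errors are SE of the log2 fold change, or SD between arrays where named. On simulated data the fit recovered 20%, 76%, 94% and 98% of genes changed by 0.5, 1, 1.5 and 2 on the log2 scale. There 50 of 12367 genes were changed at each size, and 5 unchanged genes were called. In the data 2853 genes were called. The adjusted threshold depends on how many genes change, so these shares do not give the recovery in the data. The number of arrays limits the precision.

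Genes named in the text were Atoh1, Ptch1, Gli1 and Fut9, the 12 largest called changes in each direction, and for each of 31 lists (576 genes, 453 measured) up to 4 called members of smallest p, or 1 where none was called; others are named as members of a list or as chosen after their values were seen, and some are left out for length. Same-numbered conventional CD15 positive and negative arrays deviated together from their group means (correlation 0.58 to 0.76, at most 0.48 for other pairs), so those numbers were taken to pair them. The main fit treated these arrays as independent. Alternatives were quantile normalization, scaling to a common median, other pseudocounts and filters, other uses of probe sets, other fits, and leaving out arrays. Quantile normalization combined with the conventional sets or with the 10 arrays alone was added after seeing the data. So were 2 of the 7 array measures, the 99th percentile of the signal and the polyA spikes.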

Additional observations from a re-analysis of the deposited data

Results flagged for a closer look

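Each named gene, on log2(signal + 32), and each array measure was checked within each model, in 218 groups. In 9 of them the highest or lowest array lay beyond the gap that chance would pass in about 1 of 20 groups. As a whole the flags are not above that rate. All 9 were of named genes, and 5 of the 9 fell on Math1-GFP array 1. On that array Gli1 was low at 8.62 (next array 9.31), and Dcx at 10.5 (next 9.86), C1qb at 8.44 (next 6.65), Wfdc17 at 6.74 (next 5.42) and Lum at 6.28 (next 5.71) were high. Among conventional arrays, Mid1 was high on the unnumbered array at 8.79 (next 6.14), Foxm1 and Cenpe on array 6 at 8.57 (next 7.89) and 8.94 (next 8.48), and Lcn2 on array 5 at 8.41 (next 6.28).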

How the results depend on the processing

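No paired analysis was possible because the compared groups are tumours of different models. Title number 5 occurs in both groups and was not taken as a pair. With the conventional numbers as a random replicate block (correlation 0.52), 2807 genes were called. The 2853 calls (1347 higher, 1506 lower) ran from 2183 to 3187 when 1 array was left out (939 to 1546 higher, 1215 to 1641 lower). A common median left 371 higher, and every probe set gave 6072 calls, 3898 higher. Against the unnumbered conventional array and array 6 alone there were 745 calls (232 higher, 513 lower), and 472 (113 and 359) with quantile normalization, which gave 726 higher in the 10 arrays alone. The interaction had 0 limma calls in every setting run, with 175 to 631 genes at an unadjusted p under 0.05.

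With 1 array left out, the differences (Math1-GFP minus conventional) ran from 2.74 to 4.89 for the median signal, -3.595 to -2.27 for the percent of probe sets under 32, -0.23 to -0.13 for actin, -1.16 to -0.75 for hybridization spikes and -0.997 to -0.612 for polyA spikes, and some missed or passed the threshold. Of 102 named genes' values, 2320 kept direction and side of the threshold, 490 lost the call, 20 gained it and 19 changed sign. Sign changes were Mcm7 with quantile normalization (0.0059, 0.0030 against arrays 2 to 5, 0.012 against the other pair), Hsd17b7 and B4galt6 with the mean of probe sets (0.11 each), Gli1 in arrays with e1 in the title (0.0036) and, over fits without 1 array (-0.241 to 0.0240, positive without Math1-GFP array 1), Ptch1 against the unnumbered array and array 6 (-0.0111) and over fits without 1 array (-0.122 to 0.649, negative without Math1-GFP array 9), Lum (0.0855) and Clic6 (0.18) against that pair, and Apc2 against it with quantile normalization (-0.20). Klf1 was -0.0597 with a pseudocount of 1, -0.00083 against arrays 2 to 5 (-0.0161 with quantile normalization), and -0.112 to 0.185 over fits without 1 array, below 0 without the unnumbered conventional array or Math1-GFP array 5 or 7. The cause was not tested. The number of arrays and dim signal limit small changes.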
